A study of Mus musculus with 8 samples.

Results

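Histone genes were read by 80 of the 35556 probe sets of the array, out of 23410 to which the platform annotation gives at least 1 gene symbol. A probe set was counted as a histone one when every symbol it carries names a histone, so sets shared by several histone genes were kept. The 80 probe sets carry 91 symbols: 47 sets carry 1 symbol and 33 carry several. Genes of the replication-dependent clusters alone are named by 48 sets, and variants outside the clusters alone by 30. Another 2 sets name H2A cluster genes together with H2af-ps2, the H3 gene H3c4 and the variant H2ax. Of these, the set 10409220 also names the variant H2aj. The 48 cluster sets comprise 5 for H1, 5 for H2A, 11 for H2B, 13 for H3 and 13 for H4, plus 1 set shared by H2bc6 and H1f4. They include H1f6, H2ac1 and H2bc1, which are germ line genes inside a cluster. The 30 variant sets comprise 7 for variants of somatic cells and 23 for variants known from the germ line, 12 of which belong to the X-linked H2al1 family.

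Total RNA of bone marrow cells from C57BL/6J mice was hybridised to 8 Affymetrix arrays, 1 for each RNA preparation, and each preparation pooled 4 or 6 mice. KLS cells carry c-Kit and Sca-1 and lack lineage markers, a gate that contains blood stem cells. MEP stands for progenitors of megakaryocytes and red cells. Both were flow-sorted from mice labelled ∆Hmga2 (TG, for the transgene) and from wild-type mice (WT), which gives TG KLS, WT KLS, TG MEP and WT MEP with 2 arrays each. The promoter and the cells that drive the transgene, the number of founder lines and the age of the mice are not stated in the labels. Levels below are log2 signals, so a difference of 1 is a doubling, and a level was not set against that of another probe set.

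Nucleosomes wind DNA around a core of H2A, H2B, H3 and H4, and H1 binds the linker between cores. Replication-dependent histone genes lie in clusters, are transcribed in S phase and give messages that end in a stem-loop in place of a poly(A) tail. Variants such as H2A.Z and H3.3 are encoded by single genes outside the clusters, make polyadenylated messages and are produced throughout the cell cycle. Because the cluster genes of a type encode nearly the same protein, their coding sequences resemble each other and some probe sets are shared by several genes.

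That sharing set how many independent readings the 80 probe sets give. Of the 13 H3 sets, 10 carried the same 12 symbols, and 5 of the 13 H4 sets carried the same 11. The 80 sets had 55 distinct symbol lists and 75 distinct value profiles, since 9 of them, in 4 groups, held values equal to those of another set. A shared set is named here by its first symbol and its probe set number, and its value cannot be assigned to 1 of its genes. Whether the labelling primed at poly(A) tails or at random is not stated in the labels, and its part in the values was not tested.

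The promoters of 6 of these genes are shown. For each cluster type it is the gene with the smallest p between KLS and MEP cells, among sets with 1 symbol and a promoter. The variant H2az1 was added. H3c4, the H3 gene taken in this way, differed by only 0.19 between cell types, and its arrays overlapped. RefSeq, on the GRCm38.p6 assembly, gave a promoter for 83 of the 91 genes, as 300 bases from 250 before to 50 after the start site. Capitals mark 3 motifs searched on both strands, with overlapping matches kept. The first is the TATA box, spelled TATAAA, which reads TTTATA on the other strand. The second is the CCAAT box, whose other strand reads ATTGG. The octamer is spelled ATTTGCAT, and its other strand reads ATGCAAAT. In order, the windows lie at chr13:21780576-21780875 (minus strand), chr11:58954435-58954734 (plus), chr13:21721794-21722093 (plus), chr13:23575513-23575812 (plus), chr13:23551619-23551918 (minus) and chr3:137864237-137864536 (plus).
H1f5: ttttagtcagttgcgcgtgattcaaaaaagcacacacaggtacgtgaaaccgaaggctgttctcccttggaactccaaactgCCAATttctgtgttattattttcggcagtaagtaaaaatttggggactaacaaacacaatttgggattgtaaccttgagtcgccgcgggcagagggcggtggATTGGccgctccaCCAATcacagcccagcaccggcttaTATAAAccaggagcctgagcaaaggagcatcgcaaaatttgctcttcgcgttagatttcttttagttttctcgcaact
H2aw: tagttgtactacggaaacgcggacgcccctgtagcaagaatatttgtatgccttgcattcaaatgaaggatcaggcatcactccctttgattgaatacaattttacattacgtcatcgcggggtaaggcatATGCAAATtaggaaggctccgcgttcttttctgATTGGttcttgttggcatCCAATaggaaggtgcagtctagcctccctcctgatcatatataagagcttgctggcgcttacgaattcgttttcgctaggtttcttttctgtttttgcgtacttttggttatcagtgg
H2bc14: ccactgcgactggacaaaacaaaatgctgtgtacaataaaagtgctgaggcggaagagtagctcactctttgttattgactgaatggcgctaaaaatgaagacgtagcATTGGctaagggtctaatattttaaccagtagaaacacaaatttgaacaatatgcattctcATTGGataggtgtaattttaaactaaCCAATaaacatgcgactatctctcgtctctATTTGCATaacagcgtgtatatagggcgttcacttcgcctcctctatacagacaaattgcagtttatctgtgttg
H3c4: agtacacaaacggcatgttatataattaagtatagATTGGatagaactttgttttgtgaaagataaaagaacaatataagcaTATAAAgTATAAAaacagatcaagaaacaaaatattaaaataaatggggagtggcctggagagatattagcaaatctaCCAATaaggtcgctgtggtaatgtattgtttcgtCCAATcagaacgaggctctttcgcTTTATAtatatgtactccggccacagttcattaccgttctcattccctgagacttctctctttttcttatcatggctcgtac
H4c6: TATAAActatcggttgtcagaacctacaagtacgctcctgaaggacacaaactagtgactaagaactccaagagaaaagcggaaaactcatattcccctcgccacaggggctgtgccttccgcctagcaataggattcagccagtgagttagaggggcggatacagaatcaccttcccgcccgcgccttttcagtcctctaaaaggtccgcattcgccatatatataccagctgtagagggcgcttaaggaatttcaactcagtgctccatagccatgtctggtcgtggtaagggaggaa
H2az1: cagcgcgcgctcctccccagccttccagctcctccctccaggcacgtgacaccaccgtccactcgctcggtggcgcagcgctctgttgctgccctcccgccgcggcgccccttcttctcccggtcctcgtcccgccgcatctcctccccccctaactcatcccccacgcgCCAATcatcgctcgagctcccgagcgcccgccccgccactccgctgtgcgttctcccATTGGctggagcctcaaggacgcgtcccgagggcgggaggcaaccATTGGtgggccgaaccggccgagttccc

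The CCAAT box stood in the windows of 46 of 55 cluster genes (83.6%), against 37.9% of all 27025 promoters of the table. All H1, H2A, H2B and H3 cluster windows held it, and 3 of the 12 H4 windows did. TATAAA was found in 32 of the 55 (58.2%), against 14.2% of all promoters, and in 0 of 5 windows of somatic variants. The octamer, known as the binding sequence of the Oct1 factor in H2B promoters, was present in 12 of the 55 (21.8%) against 1.75% of all. It lay in 5 of 9 H2B windows (55.6%) and 7 of 18 H2A windows (38.9%), and in 0 of the H1, H3 and H4 windows. Among the sequences above, H2bc14 holds it at position -25 and H2aw at position -119, counted from the start site. These matches describe the letters only.

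Marker genes were read to check the labels, and the KLS arrays had the higher stem and progenitor markers. Of the 7 probe sets of that list (Cd34, Flt3, Hlf, Meis1, Kit and 2 sets for Mecom), 4 passed the test as higher in KLS than in MEP cells, and the median level over the list was 8.80 to 9.18 on KLS arrays and 6.06 to 7.62 on MEP arrays. Markers of megakaryocyte-erythroid progenitors, such as Gata1 and Klf1, differed less, with list medians of 8.0 to 8.15 on KLS and 8.24 to 8.42 on MEP arrays, and 0 of 7 passed. Itga2b, of the same list, lay the other way: its 4 KLS arrays were all above its 4 MEP arrays, by 0.27 ± 0.11 (SE, limma adjusted p = 0.343). Hmga2 (probe set 10372796), whose position relative to the transgene is not given, read 7.35 and 7.11 in TG KLS, 6.85 and 7.12 in WT KLS, 6.95 and 6.99 in TG MEP, and 6.70 and 6.74 in WT MEP. Its averaged genotype difference was 0.25 ± 0.10 (SE, limma adjusted p = 0.999). The array WT MEP 1 stood apart: its lymphoid marker median was 9.50, against 6.71 to 6.82 on the other 3 MEP arrays, and its progenitor marker median of 7.62 was the highest of the MEP arrays. For 12 neutrophil markers the median level was 9.88 on WT MEP 1 and 8.84 on WT MEP 2. It was 7.86 and 8.12 in TG MEP, and in KLS cells it spanned 9.87 to 10.47. For differences that use WT MEP arrays, the median over all cluster sets and some of the counts are therefore also given without WT MEP 1.

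**Figure D1:**
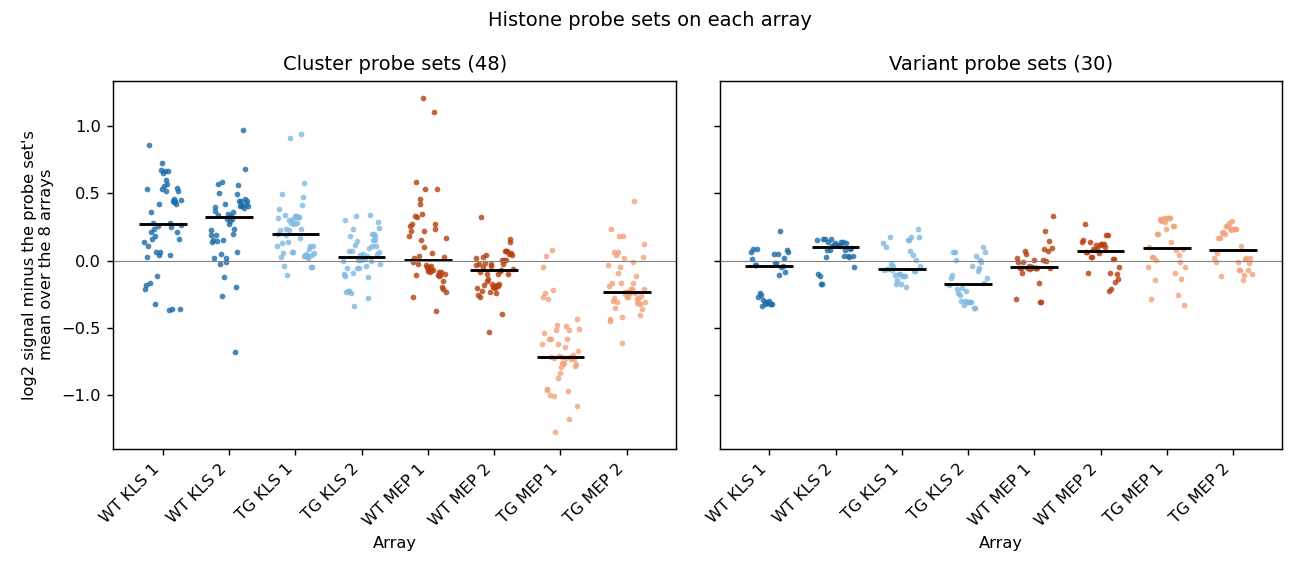
Each point is 1 histone probe set, plotted as its log2 signal minus its mean over the 8 arrays (vertical axis) on each array (horizontal axis), with the 48 cluster sets on the left, the 30 variant sets on the right and a bar at the median. Cluster sets were lowest on TG MEP 1, which was the lowest of the 8 arrays for 43 of 48, and WT KLS 1 or WT KLS 2 was the highest for 32 of 48, while the medians of the variant sets stayed near 0.

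The first comparison asked whether stem and progenitor cells differ from megakaryocyte-erythroid progenitors in histone messages, over both genotypes. Cluster probe sets read higher in KLS cells, by a median of 0.50 on the log2 scale, against 0.01 over all probe sets tested, and 45 of the 48 differences lay above 0. The H3 and H4 sets lay farthest up, with medians of 0.61 and 0.53, followed by H2B with 0.32, H2A with 0.24 and H1 with 0.23. The H2A median is the value of H2ac1, a germ line gene inside a cluster. The 2 sets that name H2A cluster genes, H3c4 and H2ax differed by 0.65 and 0.69. The first of them (10409220) read 10.83 and 10.47 in TG KLS, 11.22 and 10.85 in WT KLS, 9.81 and 10.08 in TG MEP, and 10.61 and 10.26 in WT MEP. Its WT MEP 1 array lay above TG KLS 2, so the cell types met there. The H2bc6 and H1f4 set differed by 0.35. The 30 variant sets did not follow as a group, with a median of -0.09. Their 23 germ line sets had a median of -0.17 and their 7 somatic sets 0.09.

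None of the 80 passed an adjusted p under 0.05 in either direction. Over all probe sets tested, limma called 0.252% as higher and 0.0555% as lower in KLS cells. At an unadjusted p under 0.05, 26 of the 48 cluster sets were higher in KLS cells, where 7.44% of all probe sets were. Of the 48, 0 were lower, where 5.83% of all were. Among the 31 cluster sets with 1 symbol, 10 were higher at that p. All 4 KLS arrays lay above all 4 MEP arrays in 17 of the 48, against 4.34% of all probe sets, and the reverse held for 0 of 48, against 4.46%. Of those 17, 9 were sets of the same H3 genes, 2 were sets of the same H4 genes, and 6 carried 1 symbol, namely H2aw, H2bc14, H4c3, H4c4, H4c14 and H4f16. The smallest adjusted p was 0.0889, shared by 4 sets. Neutrophil markers also lay higher in KLS cells, with a median of 1.19, 12 of 12 above 0 and 3 called, and their part in the histone result was not tested. In RNA of a bulk sort, fewer cells with a message and less of the message per cell cannot be told apart.

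**Figure D2:**
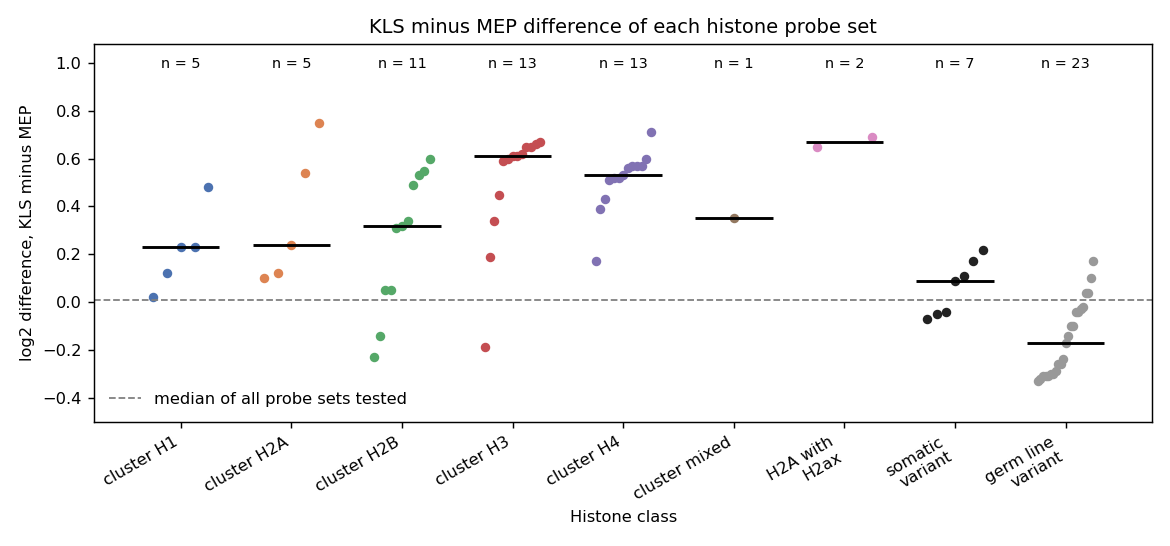
Each point is the log2 difference between KLS and MEP cells, averaged over genotypes, of 1 histone probe set (vertical axis), by class (horizontal axis), with a bar at the class median and a dashed line at the median of all probe sets tested, 0.01. The cluster H3 and H4 classes lie highest, at medians of 0.61 and 0.53, and the germ line variants lie below 0, at -0.17.

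Linker histone H1 was read by sets that carry 1 symbol each. H1f5, which encodes H1.5, stood at 9.77 and 9.27 in TG KLS, 9.92 and 9.54 in WT KLS, 8.85 and 8.94 in TG MEP, and 9.66 and 9.13 in WT MEP. Only WT MEP 1 reached into the KLS range, and the 2 TG MEP arrays were the lowest. The difference of 0.48 ± 0.17 (SE, 95% interval 0.08 to 0.88) had an adjusted p of 0.275. H1f2, which encodes H1.2, read 9.69 and 9.27 in TG KLS, 9.16 and 9.60 in WT KLS, 9.10 and 9.18 in TG MEP, and 9.63 and 9.34 in WT MEP, so that its KLS and MEP arrays overlapped. Of the other H1 sets, H1f1 and H1f3 differed by 0.23 each, and H1f6, the H1 of the testis, by 0.02.

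Among the H2A sets, H2aw, a replication-dependent gene in the small cluster on chromosome 11, had the smallest p of all histone sets. It read 9.90 and 10.12 in TG KLS, 10.30 and 10.51 in WT KLS, 9.36 and 9.59 in TG MEP, and 9.83 and 9.89 in WT MEP. Every KLS array lay above every MEP array, and within each cell type the WT arrays lay above the TG arrays. The 4 KLS arrays averaged 10.21 ± 0.26 and the 4 MEP arrays 9.67 ± 0.24 (SD). The difference between them was 0.54 ± 0.11 (SE, 95% interval 0.29 to 0.79), with an unadjusted p of 0.00119 and an adjusted p of 0.0889. H2ac15, in the main cluster on chromosome 13, differed more, by 0.75 ± 0.22 (SE, adjusted p = 0.184). It read 8.53 and 7.81 in TG KLS, 8.89 and 8.40 in WT KLS, 7.08 and 7.73 in TG MEP, and 8.05 and 7.76 in WT MEP, with TG KLS 2 below WT MEP 1. The other H2A sets, H2ac1, H2ac4 and H2ac8, differed by 0.24, 0.12 and 0.10. A second H2aw reading, the set 10376446, is shared with Trim17 and lies outside the name rule. It read 7.07 and 7.42 in TG KLS and 7.51 and 7.77 in WT KLS. In MEP cells it read 6.82 and 7.10 in TG and 7.10 and 7.42 in WT. WT MEP 2 lay above TG KLS 1, so its cell types overlapped, with a difference of 0.33 ± 0.14 (SE, limma adjusted p = 0.356).

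The 11 H2B sets carry 1 symbol each and ranged from -0.23 to 0.60. H2bc14, whose promoter above holds the octamer, read 9.32 and 9.16 in TG KLS, 9.37 and 9.59 in WT KLS, 8.51 and 8.78 in TG MEP, and 9.06 and 8.91 in WT MEP. Its cell types did not overlap, and the difference was 0.55 ± 0.11 (SE, 95% interval 0.29 to 0.80, adjusted p = 0.0889). H2bc9 stood at 10.10 and 9.77 in TG KLS, 10.24 in both WT KLS arrays, 9.31 and 9.40 in TG MEP, and 9.92 and 9.59 in WT MEP. Only WT MEP 1, above TG KLS 2, kept its cell types from separating, and its difference was 0.53 ± 0.12 (SE, adjusted p = 0.105). H2bc21, an H2B gene of the chromosome 3 cluster that is also known to make polyadenylated messages, lay the other way, with 9.66 and 9.68 in TG KLS, 9.45 and 9.82 in WT KLS, 9.85 and 9.68 in TG MEP, and 10.19 and 9.81 in WT MEP. Its arrays overlapped between cell types, and the difference of -0.23 ± 0.13 (SE) did not pass (adjusted p = 0.543). H2bc22 was the other H2B set below 0, at -0.14. H2bc3 and H2bc18 differed by 0.49 ± 0.22 and 0.32 ± 0.17 (SE), with TG MEP 1 as the lowest array of both, at 6.68 and 6.38.

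Core histone H3 was read mainly by the 10 sets with the same 12 symbols, which are one reading of the H3 genes taken several times. Their differences ran from 0.45 to 0.67. The set 10404028 had the smallest p of them and read 8.57 and 8.34 in TG KLS, 8.83 and 8.64 in WT KLS, 7.59 and 8.05 in TG MEP, and 8.25 and 8.10 in WT MEP. Here the 4 KLS arrays lay above the 4 MEP arrays, with TG MEP 1 far below the rest. The difference was 0.60 ± 0.13 (SE, 95% interval 0.29 to 0.90, adjusted p = 0.10). The 3 H3 sets with 1 symbol differed less: H3c4 by 0.19, H3c7 by 0.34 and H3c15 by -0.19. H3c15 was one of the dim sets, with levels between 4.27 and 6.05.

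Histone H4 gave the same direction in all 13 sets, from 0.17 to 0.71. The set 10403957, shared by 11 H4 symbols, read 11.07 and 11.23 in TG KLS, 11.48 in both WT KLS arrays, 10.32 and 10.72 in TG MEP, and 10.93 and 11.04 in WT MEP. Its KLS arrays all lay above its MEP arrays, and its difference was 0.57 ± 0.11 (SE, 95% interval 0.30 to 0.83, adjusted p = 0.0889). The set 10408092 held the same values. H4c3, a single-symbol set, had the largest H4 difference, 0.71 ± 0.17 (SE, adjusted p = 0.124), from levels of 8.82 and 8.89 in TG KLS, 8.95 and 9.71 in WT KLS, 8.01 and 8.33 in TG MEP, and 8.54 and 8.64 in WT MEP. Outside the large clusters, H4f16 on chromosome 6 read 7.82 and 7.77 in TG KLS, 8.16 and 8.15 in WT KLS, 7.04 and 7.50 in TG MEP, and 7.48 and 7.75 in WT MEP. It too separated the cell types, by 0.53 ± 0.13 (SE, adjusted p = 0.121). H4c4 read 11.65 in both TG KLS arrays, 12.08 and 11.93 in WT KLS, 10.76 and 11.28 in TG MEP, and 11.39 and 11.59 in WT MEP, again with all KLS arrays on top and a difference of 0.57 ± 0.13 (SE, adjusted p = 0.115). H4c14 of the chromosome 3 cluster differed by 0.56, and H4c9 had the smallest H4 difference, 0.17.

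The size of this pattern depended on the scaling and on which sets were counted. With the values as deposited, 9 of the 48 cluster sets separated the cell types, and with median centring 8, while the cluster median was 0.45 and 0.42. Over the 31 cluster sets with 1 symbol the median was 0.32, and 6 separated the cell types. Without WT MEP 1 the cluster median was 0.48, with 26 sets that did not overlap. Leaving out WT MEP 1 and TG MEP 1 gave a cluster median of 0.37, with 28 sets that did not overlap. Fewer arrays separate more easily for any probe set. Shares over all probe sets were not computed in these settings, so the counts cannot be compared with those on 8 arrays.

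**Figure D3:**
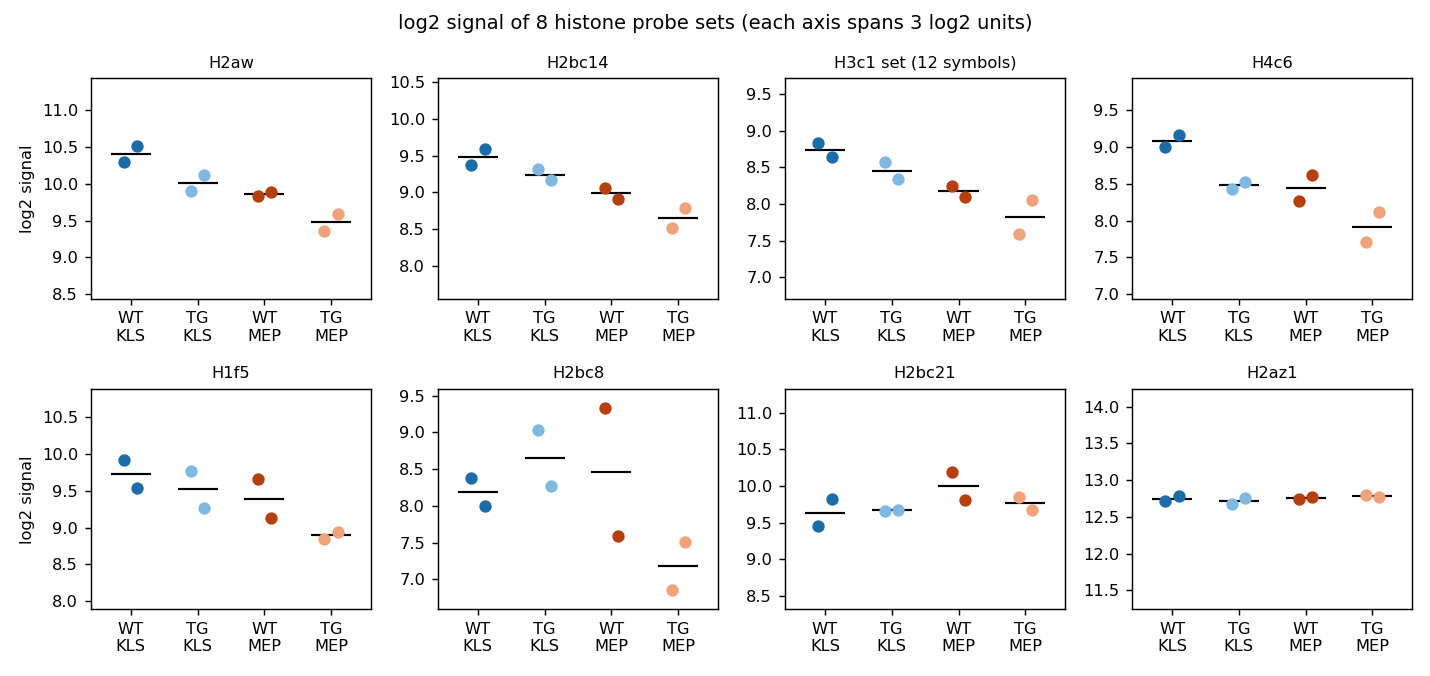
Points are the log2 signals (vertical axis) of single arrays for 8 histone probe sets in WT KLS, TG KLS, WT MEP and TG MEP (horizontal axis), with a bar at the mean of the 2 arrays of a group, and each panel spans 3 log2 units. H2aw, H2bc14, H3c1 and H4c6 step down from WT KLS to TG MEP, H2bc8 and H2bc21 do not, and H2az1 stays between 12.68 and 12.80.

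The second comparison asked what the transgene went with in KLS cells. Cluster sets read lower in TG KLS than in WT KLS by a median of -0.25, against -0.02 over all probe sets tested, with 35 of 48 below 0. The H4, H3 and H2A medians were -0.33, -0.29 and -0.27, and those of H2B and H1 were -0.04 and -0.02. The H2A median is the value of H2ac1 and the H1 median that of H1f6, both germ line genes inside a cluster. The H3 median rests on the 10 sets with the same 12 symbols: the 3 H3 sets with 1 symbol lay above 0, at 0.85 for H3c15, 0.23 for H3c7 and 0.10 for H3c4. Over the 31 cluster sets with 1 symbol the median was -0.11, with 19 below 0. Without TG KLS 2 the median of the 48 was -0.13, that of H2A -0.13, that of H3 -0.15 and that of H2B 0.05. None of the 80 was called, where 0% of all probe sets were in either direction. At an unadjusted p under 0.05, 2 of the 48 were lower, against 0.94% of all, and 0 were higher, against 1.48%. Both TG arrays lay below both WT arrays in 20 of the 48, where 16.4% of all probe sets did. They lay above in 4, against 11.8%. Of the 31 cluster sets with 1 symbol, 10 lay below and 4 above. With median centring the 20 became 12. Markers of other cells also lay lower in TG KLS, with 0 called and medians of -0.51 over the 3 late red cell sets (3 below 0), -0.31 over the 9 lymphoid sets (9 below 0) and -0.21 over the 12 neutrophil sets (10 below 0). Their part in the histone result was not tested.

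H4c6 had the largest downward difference without overlap. It read 8.43 and 8.53 in TG KLS against 9.0 and 9.16 in WT KLS, and 7.71 and 8.12 in TG MEP against 8.27 and 8.62 in WT MEP. In both cell types the TG arrays were the lower ones. The KLS difference was -0.61 ± 0.19 (SE, 95% interval -1.04 to -0.17) and the MEP difference -0.53 ± 0.19 (-0.97 to -0.09), with unadjusted p of 0.0133 and 0.0237. H2aw was the other set with a small p in KLS cells, at -0.39 ± 0.15 (SE, unadjusted p of 0.0335 by limma). The H4c3 difference was -0.47 and that of H4f16 -0.36. Upwards, H3c15 differed by 0.85 ± 0.47 (SE, 95% interval -0.24 to 1.94), with 5.89 and 4.67 in TG KLS against 4.58 and 4.27 in WT KLS, so that 1 array carried most of it. The other 3 sets that lay higher in TG KLS without overlap were H2bc4 at 0.30, H1f3 at 0.27 and H3c7 at 0.23.

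In MEP cells the cluster sets again read lower with the transgene, by a median of -0.40 against 0.00 over all probe sets, and 46 of 48 lay below 0. The medians were -0.47 for H4, -0.46 for H2A, -0.40 for H2B, -0.38 for H3 and -0.34 for H1. No histone set was called, as 0% of all probe sets were. At an unadjusted p under 0.05, 13 of the 48 were lower, against 1.93% of all, and 0 were higher, against 1.43%. Without overlap, the TG arrays lay below the WT arrays in 31 of the 48 (16.6% of all). They lay above in 0 (14.6% of all). Of the 31 cluster sets with 1 symbol, 7 were lower at an unadjusted p under 0.05 and 15 lay lower without overlap. Markers of other cells also lay lower in TG MEP, with 0 called and medians of -1.18 over 12 neutrophil sets, -1.35 over 9 lymphoid sets and -1.20 over the 3 late red cell sets, Alas2, Slc4a1 and Hemgn, and their part in the histone result was not tested.

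The array TG MEP 1 weighed on this result. It was the lowest of the 8 arrays for 43 of the 48 cluster sets, where it was the lowest for 19.6% of all probe sets. The cluster median of its 48 levels was 7.61, against 8.05 on TG MEP 2, 8.25 on WT MEP 1 and 8.11 on WT MEP 2, and the KLS arrays had 8.33 to 8.78. At the other end, 1 of the WT KLS arrays was the highest for 32 of the 48, where 30.1% of all probe sets had their highest value there. Without TG MEP 1 the MEP cluster median was -0.18 and 0 sets had an unadjusted p under 0.05. Without TG MEP 2 it was -0.65, with 34 such sets, and without WT MEP 1 it was -0.32, with 7. Leaving out TG MEP 1 and WT MEP 1 together gave -0.08 and 0 such sets. Between the 2 TG MEP arrays, the lymphoid marker median was 6.71 on both, and the neutrophil medians were 7.86 on TG MEP 1 and 8.12 on TG MEP 2.

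WT MEP 1 was the highest of the 8 arrays for 9 of the 48 cluster sets, where it was for 9.94% of all probe sets, and 6 of the 9 were H2B sets. H2bc8 showed it most, with 9.33 on WT MEP 1 against 7.59 on WT MEP 2, and 6.85 and 7.51 in TG MEP, while TG KLS read 9.03 and 8.27 and WT KLS 8.38 and 8.0. Its arrays were thus ordered by genotype in MEP cells but 1 array of each pair lay far from the other. The MEP difference was -1.28 ± 0.54 (SE, 95% interval -2.54 to -0.01, unadjusted p = 0.0482) and the KLS difference 0.46 ± 0.54. H2bc4 behaved alike, at 9.12 and 9.15 in TG KLS, 8.70 and 8.97 in WT KLS, 8.09 and 8.65 in TG MEP, and 9.16 and 8.68 in WT MEP. H3c15 was high on WT MEP 1 as well, at 6.05 against 4.87 on WT MEP 2 and 4.46 and 4.78 in TG MEP. H2bc8, H2bc4 and H3c15 were therefore high on the array with the high lymphoid and neutrophil markers, whose part in these values was not tested.

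**Figure D4:**
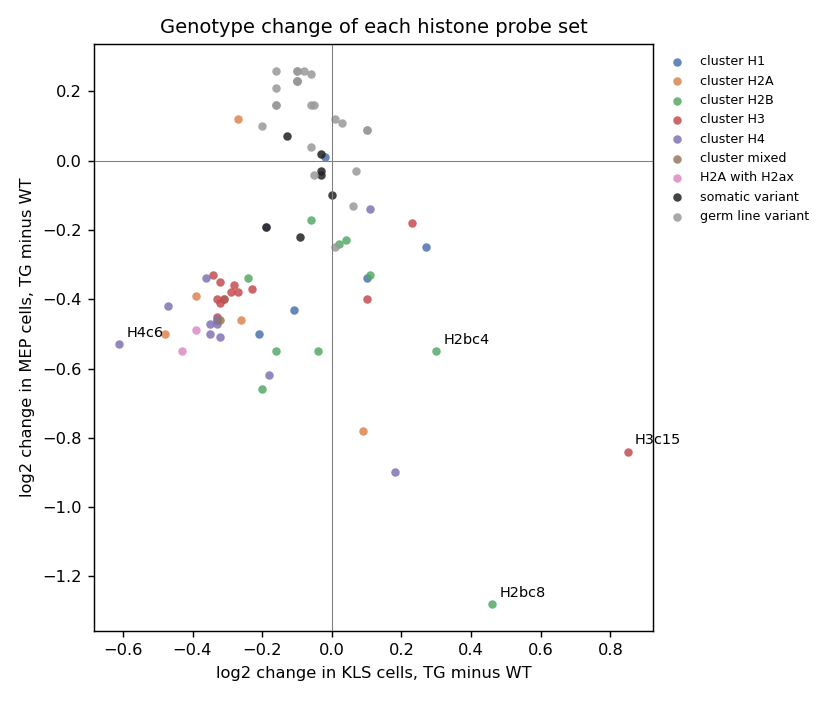
Each point is 1 histone probe set, placed by its log2 difference between TG and WT in KLS cells (horizontal axis) and in MEP cells (vertical axis), coloured by class. Most H3 and H4 cluster sets lie in the lower left, while H2bc8, H2bc4 and H3c15 lie in the lower right, lower with the transgene in MEP cells and higher in KLS cells.

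Taking both cell types, 33 of the 48 cluster sets lay below 0 in each, where 27.1% of all probe sets did. In each, 17 were lower in TG without overlap, against 2.73% of all. The 17 included all 5 sets with the same 11 H4 symbols and some with the same 12 H3 symbols, which are repeated readings. The averaged genotype difference of the cluster sets had a median of -0.35, against -0.01 over all. At an unadjusted p under 0.05, 15 of 48 were lower, against 1.82% of all, and 0 were higher, against 1.2%. Of the 31 cluster sets with 1 symbol, 7 were lower at that p. H4c6 had an average of -0.57 ± 0.13 (SE, unadjusted p = 0.00314), and the adjusted p of every histone set was 0.999 or more, where 0% of all probe sets were called. Without TG MEP 1 the averaged cluster median was -0.20, with 9 sets at an unadjusted p under 0.05, without TG MEP 2 it was -0.45, with 31, and without WT MEP 1 it was -0.29, with 10. All 4 TG arrays never lay below all 4 WT arrays for a histone set. That order was met by 0.918% of all probe sets.

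Whether the genotype difference depends on the cell type was tested by the interaction, the KLS difference minus the MEP difference. Its cluster median was 0.14, against 0.00 over all probe sets, and 0 of the 80 were called, as 0% of all were. At an unadjusted p under 0.05 stood 2 cluster sets, both higher, against 1.05% of all, and 0 were lower, against 1.14%. They were H2bc4 at 0.85 ± 0.33 and H3c15 at 1.69 ± 0.66 (SE). H2bc8 had the largest value, 1.74 ± 0.77 (95% interval -0.05 to 3.52). Without TG MEP 1 the cluster median was -0.08, so its sign turned with that array, and without WT MEP 1 it was 0.11.

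Variants outside the clusters differed little. H2az1, which encodes the H2A.Z found at promoters, read 12.68 and 12.76 in TG KLS, 12.71 and 12.79 in WT KLS, 12.80 and 12.77 in TG MEP, and 12.75 and 12.77 in WT MEP (probe set 10496379). The 8 arrays lay within a narrow band and overlapped between cell types, with a KLS minus MEP difference of -0.04 ± 0.08 (SE, 95% interval -0.24 to 0.15). H2az2, which encodes the second H2A.Z, differed by 0.11 ± 0.10. H2ax encodes H2A.X, the variant phosphorylated at DNA breaks, and read 9.12 and 9.02 in TG KLS, 9.30 and 9.21 in WT KLS, 8.82 and 8.97 in TG MEP, and 9.30 and 8.87 in WT MEP. Its TG KLS arrays lay below the WT KLS arrays without overlap, its MEP arrays overlapped, and the genotype difference was -0.19 in each cell type with no adjusted p under 0.05.

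H2aj was the somatic variant whose cell types separated. This H2A gene outside the clusters read 9.97 and 9.80 in TG KLS, 9.88 and 9.95 in WT KLS, 9.65 and 9.68 in TG MEP, and 9.70 in both WT MEP arrays. The 4 KLS arrays were the higher ones, by 0.22 ± 0.09 (SE, 95% interval 0.01 to 0.42, adjusted p = 0.339), and the genotype difference was -0.03 in each cell type. The single-symbol set of H3f3a, a gene for H3.3, differed by -0.07 between cell types, and H1f10, a linker histone variant, by 0.09. As a group the 7 somatic sets had medians of 0.09 between cell types, -0.03 for genotype in KLS and -0.04 in MEP cells.

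The germ line sets lay slightly lower in KLS cells, with a median of -0.17, and 9 of the 23 were lower at an unadjusted p under 0.05, where 5.83% of all probe sets were. All 9 share 12 H2al1 symbols, and 3 of them held the same values. With 1 symbol and 1 probe set per gene the median was 0.01. The germ line sets are mostly repeated readings of the H2al1 genes, which encode short H2A variants of sperm cells, at levels of 5.48 to 6.79. The H2al1i set 10598654 read 6.12 and 5.99 in TG KLS, 6.00 and 6.43 in WT KLS, 6.53 and 6.59 in TG MEP, and 6.30 and 6.41 in WT MEP. WT KLS 2 lay within the MEP range, and the difference was -0.33 ± 0.12 (SE, adjusted p = 0.278). In MEP cells the 23 sets had a median genotype difference of 0.16, and 12 of them lay higher with the transgene without overlap, where 14.6% of all probe sets did.

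Genes that serve the making and loading of histones had medians below 0 between cell types, with 0 called. The list for transcription and end processing of replication-dependent histone messages had 16 probe sets for 15 genes, and its median between KLS and MEP cells was -0.15, with 0 called and 6 lower at an unadjusted p under 0.05. Over all probe sets tested, 5.83% were lower at that p. Npat, the cyclin E-Cdk2 substrate that switches on histone genes, read 8.46 and 8.31 in TG KLS, 7.73 and 7.71 in WT KLS, 8.50 and 8.69 in TG MEP, and 8.61 and 8.54 in WT MEP. The WT KLS arrays stood below all others. Its KLS genotype difference was 0.67 ± 0.13 (SE, unadjusted p = 0.00118, adjusted p = 1), and its KLS minus MEP difference was -0.53 ± 0.09 (adjusted p = 0.0756). Slbp, which encodes the stem-loop binding protein, differed by -0.38 in the set 10412559 and by -0.15 in the set 10529299. The chaperone and deposition list had 21 sets for 20 genes, a median of -0.16 and 0 called. In it Nasp, a carrier of H3 and H4, differed by -0.34, and Cenpa, the H3 variant of centromeres, by -0.25.

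Cell cycle genes lay lower in KLS cells, where the cluster histone sets were higher. The S phase list, with 24 sets for 22 genes such as the Mcm helicase subunits and Pcna, had a median of -0.20 between KLS and MEP cells, with 22 of 24 below 0, 7 lower at an unadjusted p under 0.05 and 0 called. The list for G2 and M phase, with 17 sets for 16 genes, had a median of -0.30, with 17 of 17 below 0, 7 at an unadjusted p under 0.05 and 0 called. Over all probe sets tested, 11088 of 23410 lay below 0, 5.83% were lower at that p and 0.0555% were called as lower. For genotype the S phase medians were 0.02 in both cell types, and the G2 and M phase medians were 0.00 in KLS and -0.05 in MEP cells. By array, the S phase median was 9.47 on TG MEP 1 and 9.46 on TG MEP 2. The part of the cell cycle in the histone values was not tested.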

How the data were processed

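Log2 signals, a scale read from their range of 1.71 to 14.0, were deposited for 35556 probe sets. They were made with Affymetrix Expression Console, per the submitters' processing notes, and its version, summarization and normalization are unstated there. The 8 array medians spanned 0.106, above the 0.1 set as a limit, so arrays were quantile normalized. Cluster genes were told from variants by their RefSeq synonyms (GRCm38.p6).

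All 23410 probe sets with a symbol were fitted singly with limma 3.58.1 in R 4.3.3, with a mean per group (4 residual and 3.46 prior degrees of freedom). P-values are two-sided, with Benjamini-Hochberg adjustment over these probe sets and calls at an adjusted p under 0.05. They measure the spread between pools. The procedure was tested on simulated data.

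Named by rule were the smallest p per type, class and comparison, the 5 largest differences without overlap per class, listed variants, and Slbp, Npat, Nasp and Cenpa. H1f2, H2ac15, H2bc21, H2bc3, H2bc18, H4c4, the sets 10409220 and 10376446, and sets given by 1 difference alone were chosen after their values were seen. Members and lists were chosen with earlier results of these data known. The number of arrays limits the precision.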

Additional observations from a re-analysis of the deposited data

How the results depend on the processing

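With 2 arrays a group, single arrays move these medians. Histone sets called numbered 0 under each alternative, 0 to 0 with single arrays left out, except that an adjusted p under 0.10 called 4 between KLS and MEP cells. The smallest adjusted p of a cluster set between cell types ran from 0.0512 (1 symbol, 1 probe set per gene) to 0.246 (without TG MEP 1). The all-probe-set table, an intensity trend and the replicate block changed no call.

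Whether the replicate numbers pair the arrays is not stated in the labels, and the values do not settle it. Correlations of their deviations were 0.53 for TG KLS with WT KLS, 0.35 for TG KLS with WT MEP and 0.22 for WT KLS with WT MEP. For TG MEP they were -0.53 with TG KLS, -0.41 with WT KLS and -0.23 with WT MEP. With the replicate block the cluster medians stayed at 0.50 between cell types, -0.25 in KLS and -0.40 in MEP cells, with 0 called.

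As deposited, the germ line median in MEP cells was 0.24 (0.16 in the report) and 9 cluster sets, in place of 17, were higher in KLS without overlap. Median centring gave 8 there, and 12 in place of 20 lower in TG KLS. H2bl1 in MEP cells turned from -0.13 to 0.05 and 0.02 under these scalings. Without the dimmest 30%, the germ line median between cell types was -0.28. With 1 symbol and 1 probe set per gene, the H3 medians were 0.23 between TG KLS and WT KLS and 0.19 between cell types. The germ line medians then were 0.02 in KLS, 0.03 in MEP and 0.01 between cell types, the variant interaction 0.00, and the counts without overlap 6, 10 and 15 in place of 17, 20 and 31, since sets with several symbols drop out.

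Leaving out WT MEP 1 and TG MEP 1 was chosen after seeing the data. MEP medians then were -0.08 for cluster, -0.08 for H2A, 0.01 for H2B and -0.05 for H3. The cluster interaction was -0.10, and 28 sets were higher in KLS without overlap, where fewer arrays separate more easily. H2bl1 then was 0.17 and H3c1 (10408202) 0.01 in MEP cells, and between cell types H3c15 was 0.03, H3f3a 0.03 and H2ac4 -0.13. The cause was not tested.

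Leaving out single arrays gave counts without overlap of 17 to 26 higher in KLS, 20 to 32 lower in TG KLS and 31 to 45 lower in TG MEP, where fewer arrays separate more easily. Between cell types the medians were 0.40 to 0.62 for cluster, 0.10 to 0.27 for H1, 0.16 to 0.37 for H2A, 0.12 to 0.52 for H2B, 0.48 to 0.72 for H3, 0.42 to 0.66 for H4 and -0.28 to -0.14 for germ line sets. By genotype in MEP cells they were -0.65 to -0.18 for cluster, -0.72 to -0.21 for H2B, -0.64 to -0.12 for H3, -0.70 to -0.26 for H4 and 0.14 to 0.24 for germ line sets. In KLS cells they were -0.29 to -0.13 for cluster, -0.31 to -0.13 for H2A, -0.10 to 0.05 for H2B, -0.44 to -0.13 for H3, -0.17 to 0.21 for H1 and -0.24 to 0.09 for germ line sets. The cluster interaction was -0.08 to 0.36. Signs turned for H4c17 (10403945, -0.28 to 0.64, with -0.11 without TG KLS 1), H1f5 (-0.46 to 0.05), H1f10 (-0.28 to 0.02) and H2ac4 (-0.09 to 0.27) between TG KLS and WT KLS. In MEP cells H2bl1 ran from -0.30 to 0.05. Between cell types H3c15 ran from -0.49 to 0.12 and was 0.11 without WT MEP 1, H2ac4 -0.14 to 0.37 and H3f3a -0.17 to 0.02.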

Other observations

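Histone genes outside the name rule, chosen after their values were seen, were read by 14 probe sets that carry a histone symbol beside another symbol and by the macroH2A sets. The 7 sets shared by H2B cluster genes and H4bc24 had KLS minus MEP differences of 0.53 to 0.62, and genotype differences of -0.42 to -0.34 in KLS and -0.71 to -0.61 in MEP cells, none past the threshold. One of them (10403948) read 11.80 and 11.60 in TG KLS, 12.24 and 11.94 in WT KLS, 10.87 and 11.15 in TG MEP, and 11.86 and 11.47 in WT MEP, so the TG MEP arrays were the lowest and the other 6 overlapped. The H3.3 sets differed little between cell types. The 4 shared by H3f3a and Gm12657 differed by 0.01 to 0.10, and the 2 shared by H3f3b and Gm6485 by -0.15 and -0.14. The set shared by H2aw and Trim17 is given with H2aw above.

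Macroh2a1 encodes macroH2A1, a large H2A variant known from the inactive X chromosome. It read 10.95 and 9.95 in TG KLS, 10.98 and 9.91 in WT KLS, 8.47 and 8.67 in TG MEP, and 9.80 and 8.55 in WT MEP. All 4 KLS arrays lay above all 4 MEP arrays, and the first array of each KLS pair and of WT MEP read higher than the second. The difference of 1.58 ± 0.36 (SE, limma adjusted p = 0.113) was larger than that of any histone set named by the rule. Macroh2a2 differed by 0.52 ± 0.16 (adjusted p = 0.202). For each of these sets, what moved the values was not tested.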
